A study of Homo sapiens with 8 samples.

Results

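The mature microRNAs (miRNAs) of HCT116 cells carrying a wild-type (WT) DICER rescue were described from the 2 libraries that bear that label, out of 8 in the series. HCT116 is an established human colorectal carcinoma line of epithelial origin. All rows of both libraries were used, which gave 1595 miRNA names of the 1818 names found in any library of the series. Both libraries were made from 100 µg of total RNA by AQ-seq, a small-RNA sequencing method designed to reduce ligation bias. Genotype and cell line are the only attributes given for the group, and the titles add the label dataset II. The labels do not name the promoter that drives the rescue, the number of clones or the growth conditions. The alleles that the recipient cells carry are not named either. The other groups of the series express altered forms of DICER and were not used here. The labels do not say that the replicates came from separate cultures, so the spread behind the p-values below is that of 2 libraries and may be technical.

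A miRNA gene is transcribed as part of a long transcript, which is cut in the nucleus to a hairpin and then cut by DICER to a short duplex. One strand of the duplex, named 5p or 3p for its side of the hairpin, is usually kept by an Argonaute protein and the other is lost. The bases near the 5′ end of the kept strand, called the seed, pair with target messages, so that miRNAs with the same seed form a family with shared targets. Hairpins that lie close together on a chromosome are often cut from one transcript.

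Members of several of the largest families are shown first, leading names and minor ones, to show how names of one family share a seed and differ elsewhere. Sequences are RefSeq mature miRNAs (GRCh38.p14), written 5′ to 3′, and capitals mark the seed, bases 2 to 8.
miR-21-5p: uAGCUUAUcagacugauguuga
miR-590-5p: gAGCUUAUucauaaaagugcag
miR-222-3p: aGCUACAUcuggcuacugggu
miR-221-3p: aGCUACAUugucugcuggguuuc
miR-31-5p: aGGCAAGAugcuggcauagcu
let-7a-5p: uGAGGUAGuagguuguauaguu
let-7i-5p: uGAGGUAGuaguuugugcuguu
let-7f-5p: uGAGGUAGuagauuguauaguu
let-7c-5p: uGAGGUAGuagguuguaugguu
miR-29a-3p: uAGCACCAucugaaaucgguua
miR-29b-3p: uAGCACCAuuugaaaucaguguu
miR-17-5p: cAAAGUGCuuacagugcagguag
miR-20a-5p: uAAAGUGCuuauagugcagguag
The strands of 5 hairpins follow, because they span the range from almost only 5p, through even, to almost only 3p.
miR-100-5p: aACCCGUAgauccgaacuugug
miR-100-3p: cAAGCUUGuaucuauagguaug
miR-10a-5p: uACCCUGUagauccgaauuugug
miR-10a-3p: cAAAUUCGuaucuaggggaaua
miR-574-5p: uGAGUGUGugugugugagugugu
miR-574-3p: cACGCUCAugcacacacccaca
miR-27a-5p: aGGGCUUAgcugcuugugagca
miR-27a-3p: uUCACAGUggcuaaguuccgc
miR-23a-5p: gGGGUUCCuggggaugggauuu
miR-23a-3p: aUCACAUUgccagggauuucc
The last 3 were among the names that differed most between the libraries.
miR-1268b: cGGGCGUGguggugggggug
miR-6724-5p: cUGGGCCCgcggcgggcgugggg
miR-454-3p: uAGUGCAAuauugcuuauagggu

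Replicate 1 held 1137857.5 reads assigned to miRNA names and replicate 2 held 4269231.3, so the second library was 3.75 times as deep. Levels are therefore given as CPM, reads scaled to a library total of 1000000. A name absent from a library is at or under a limit of 3 reads, which is 2.64 CPM in replicate 1 and 0.703 CPM in replicate 2. The libraries listed 1244 and 1508 names, and 1157 names were in both. At the total of replicate 1, replicate 2 was expected to list 1152 names, fewer than the 1244 found in replicate 1. The 87 names found only in replicate 1 had at most 6 reads each, and the 351 found only in replicate 2 had at most 30.

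The reads were concentrated in few names. A total of 485 names reached 10 CPM in both libraries, 243 reached 100 CPM, 85 reached 1000 CPM and 10 reached 10000 CPM. The 85 names at 1000 CPM held 91.0% of the reads of replicate 1 and 92.5% of those of replicate 2. The most abundant 5 names of replicate 1, and 4 of replicate 2, held the first 50% of the reads, and 78 and 67 names held 90%.

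miR-21-5p, which is raised in many tumours, was the most abundant name in both libraries. It took 28.8% of the reads of replicate 1 (exact 95% binomial interval 28.7 to 28.9) and 37.9% of those of replicate 2 (37.8 to 37.9). Its mean share was 33.3% ± 6.42 (SD, n = 2). The intervals cover counting error only, and the libraries differed by far more than that. miR-21 lies at chr17:59841266-59841337 in GENCODE 29 (GRCh38), in a region annotated as an exon of the host gene VMP1.

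The pair miR-222-3p and miR-221-3p, repressors of the cell-cycle inhibitor p27, came next with miR-31-5p, a miRNA often raised in colorectal tumours. miR-222-3p was at 94746 and 69108 CPM in replicates 1 and 2. miR-31-5p was at 53076 and 41372 CPM, and miR-221-3p at 41580 and 27943 CPM. These 3 names were higher in replicate 1, where miR-21-5p was lower, and their order was the same in both libraries.

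The next names lay close to each other, and their order was not the same in the libraries. miR-27a-3p was at 22705 and 13297 CPM and miR-24-3p, made from 2 loci, at 19464 and 11426 CPM. miR-16-5p, a miRNA known to restrain cell-cycle genes, was at 11646 and 17757 CPM. The ranges of these 3 names overlapped. miR-100-5p was at 15919 and 12099 CPM. miR-10a-5p, encoded among the HOXB genes, was at 14568 and 11552 CPM, and miR-29a-3p, known to repress collagen genes, was at 11501 and 14468 CPM. The ranges of these names overlapped too, so their ranks are not separated by the data.

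**Figure D1:**
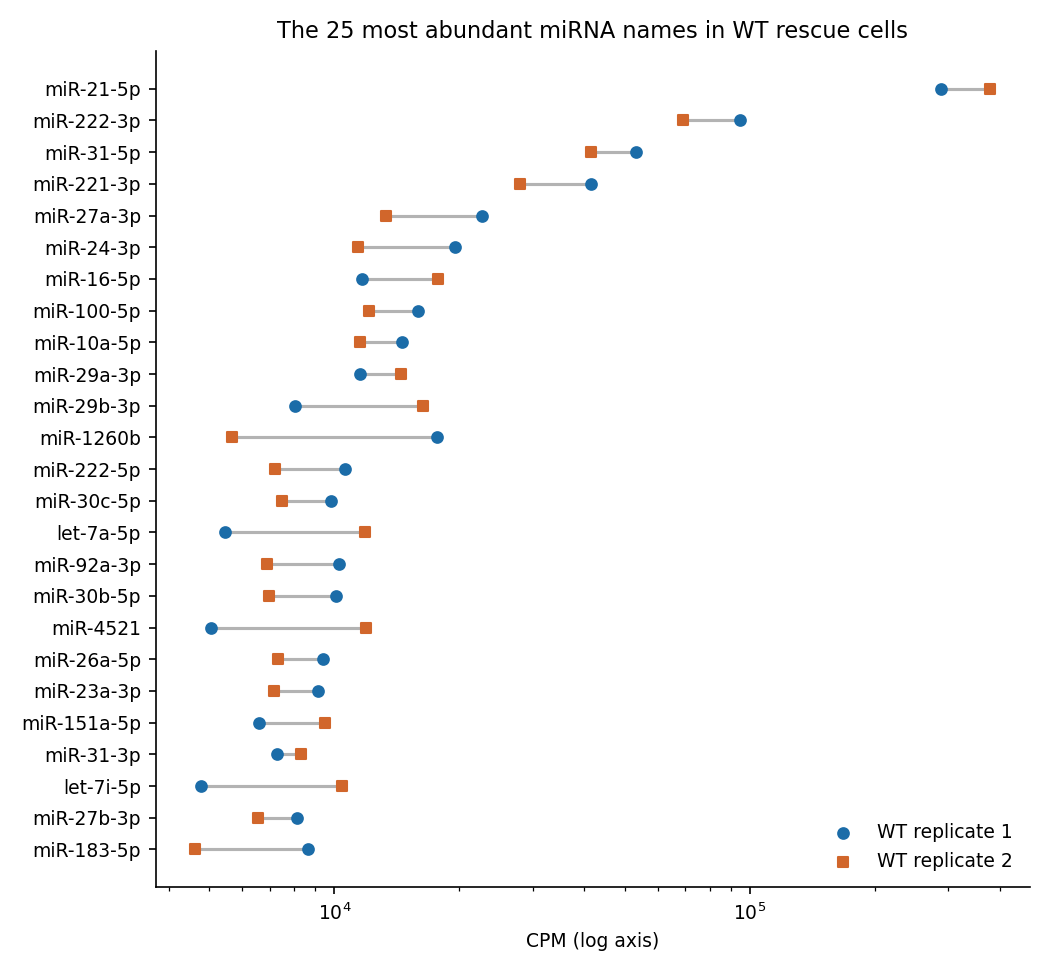
Levels of the 25 names with the highest mean, in CPM on a log axis, with a circle for WT replicate 1 and a square for WT replicate 2. miR-21-5p stands alone at 287947 and 378785 CPM, and from miR-27a-3p downward the spans between libraries overlap for neighbouring names.

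Names without a 5p or 3p suffix made up 5.89% and 3.61% of the reads. miR-1260b led them in replicate 1, at 17662 CPM against 5673 CPM in replicate 2. miR-4521 went the other way, at 5045 and 11936 CPM. Names numbered above 1000, which were mostly registered later, were 904 of the 1595 names (56.7%) and held 6.79% and 3.82% of the reads. The boundary of 1000 was chosen after the values had been seen.

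Grouped by seed, the 1415 names with a RefSeq sequence, which held 92.5% of the reads of each library, formed 1198 families, 1046 of them with a single name. The 10 largest families held 62.0% of all reads in replicate 1 and 68.8% in replicate 2. In all, 38 and 31 families were enough for 90% of the reads that had a sequence. The miR-21 family took 28.9% and 38.1% of all reads, and miR-590-5p, its only other member in these libraries, was at 923 and 1901 CPM. The family of miR-222-3p and miR-221-3p took 13.6% and 9.71%, and miR-31-5p, alone with its seed, took 5.31% and 4.14%.

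Some large families were shared among many names. The let-7 family, regulators of RAS and MYC known for their rise during differentiation, held 1.93% of the reads in replicate 1 and 4.12% in replicate 2. It had 11 names, of which 9 reached 10 CPM in both libraries. The leading member, let-7a-5p, was at 5445 and 11831 CPM and supplied 28.2% and 28.7% of the family. let-7i-5p followed at 4774 and 10445 CPM. The next name was let-7b-5p in replicate 1, at 2641 and 3226 CPM, and let-7f-5p in replicate 2, at 1938 and 6006 CPM. Members of this family differ by few bases, as the sequences above show, so reads may be divided among them by the mapping.

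The family of miR-29a-3p, miR-29b-3p and miR-29c-3p held 1.99% and 3.12% of the reads. miR-29b-3p was at 8026 and 16338 CPM, below miR-29a-3p in replicate 1 and above it in replicate 2, and miR-29c-3p was at 355 and 435 CPM. The miR-27 family held 3.08% and 1.98%, of which miR-27a-3p supplied 73.6% and 67.0%. The miR-16 and miR-15 family held 1.85% and 2.66%, with miR-16-5p at 63.1% and 66.8% of it.

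Families of the growth-promoting MIR17 group and its relatives were also large. The AAAGUGC family held 1.43% and 1.92% of the reads. Its leader changed with the library: miR-17-5p was at 6249 and 5789 CPM, and miR-20a-5p at 3390 and 5914 CPM. miR-93-5p was at 2426 and 4241 CPM and miR-106b-5p at 1976 and 3093 CPM, whereas miR-106a-5p was at 273 and 205 CPM. The miR-92a and miR-25 family held 1.92% and 1.33%.

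Families led by miR-30c-5p, miR-100-5p, miR-24-3p, miR-23a-3p, miR-10a-5p and miR-26a-5p each held 1.09% to 2.04% of the reads in both libraries. Totals hold only names with a RefSeq sequence: miR-30b-5p at 10064 and 6946 CPM and miR-30d-5p at 5261 and 6390 CPM, which bear the same number as miR-30c-5p, are not in them, so the miR-30c-5p family total is not that of all miR-30 names.

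**Figure D2:**
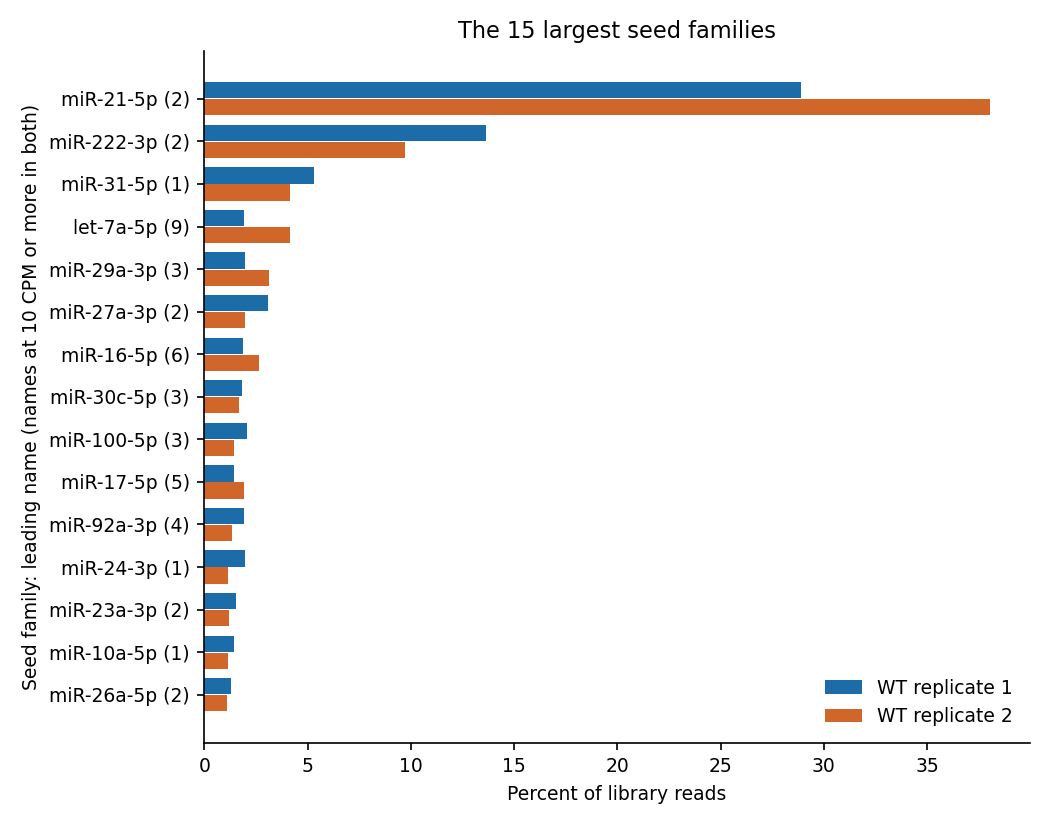
Share of each library's reads, in percent, held by the 15 seed families with the highest mean share, with one bar per WT library and the number of names at 10 CPM or more in both in brackets. The miR-21-5p bars reach 28.9% and 38.1%, and the let-7a-5p family of 9 such names has 1.93% and 4.12%.

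Placed on the genome by name (GENCODE 29), the 1176 hairpins included 259 that lay within 10 kb of another on the same strand, in 78 clusters. Names of a single locus within these clusters held 35.2% and 29.5% of the reads. The MIR221 and MIR222 cluster (chrX:45746157-45747124, minus strand, in an intron of MIR222HG) was the largest, with 15.1% and 11.3%. Its members were unequal: miR-222-5p was at 10586 and 7176 CPM and miR-221-5p at 4230 and 8449 CPM, against the far higher 3p strands given above.

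The MIR24-2, MIR27A and MIR23A cluster (chr19:13836287-13836659) held 3.34% and 2.16% of the reads, without miR-24-3p, which it shares with another cluster. miR-27a-3p was higher than miR-23a-3p in both libraries, the latter at 9130 and 7154 CPM. In the related MIR23B, MIR27B and MIR24-1 cluster (chr9:95085208-95086088), miR-27b-3p was at 8141 and 6537 CPM and miR-23b-3p at 5952 and 4531 CPM. The order of the miR-27 and miR-23 members was thus the same in both clusters and both libraries.

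The MIR17 to MIR92A1 cluster (chr13:91350605-91351391, in an exon of MIR17HG), long known as an oncogenic cluster, held 1.64% and 2.08% of the reads. All 10 of its single-locus names reached 10 CPM in both libraries. They ranged from miR-92a-1-5p, at 58.9 and 65.8 CPM, to miR-17-5p in replicate 1 and miR-20a-5p in replicate 2. miR-18a-5p was at 2633 and 4464 CPM and miR-19a-3p at 1656 and 2205 CPM. The paralogous MIR106A to MIR363 cluster on chromosome X held 0.0545% and 0.0287%, and its miR-363-3p had 1 and 0 reads. The totals of these paralogous clusters leave out miR-92a-3p and miR-19b-3p, which they share. The MIR25, MIR93 and MIR106B cluster in an intron of the replication gene MCM7 (chr7:100093560-100094074) held 1.18% and 1.29%.

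The MIR182, MIR96 and MIR183 cluster, best known from sensory cells (chr7:129770383-129775014), held 1.29% and 0.841% of the reads. miR-183-5p was at 8638 and 4625 CPM, miR-96-5p at 2621 and 1637 CPM and miR-182-5p at 1542 and 1996 CPM. The MIR99B, MIRLET7E and MIR125A cluster held 0.608% and 0.452%, and its members did not move together between libraries. miR-99b-5p was at 4458 and 2002 CPM, let-7e-5p at 441 and 1277 CPM and miR-125a-5p at 775 and 946 CPM.

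**Figure D3:**
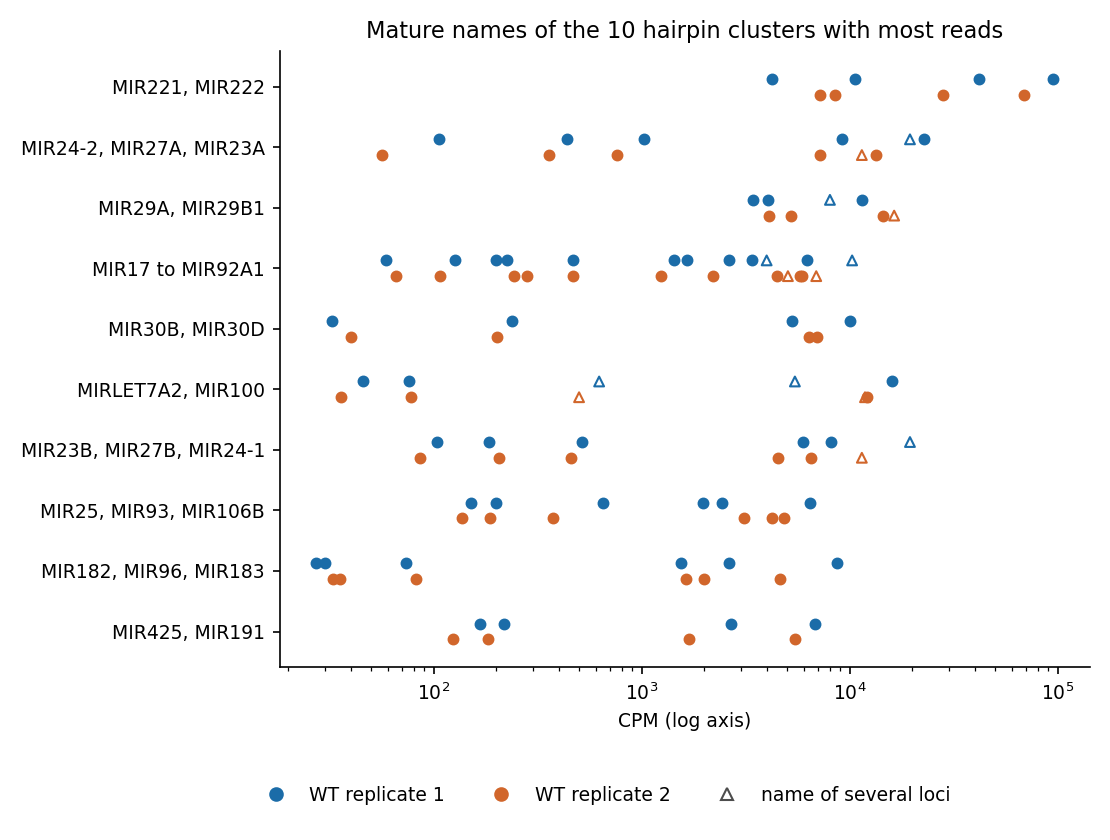
Levels, in CPM on a log axis, of the mature names of the 10 hairpin clusters with most reads, with blue for WT replicate 1 and orange for WT replicate 2 and open triangles for names made from several loci. Members of one cluster span a wide range, as in the MIR17 to MIR92A1 row, where single-locus names run from 58.9 to 6249 CPM in replicate 1.

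Large clusters known from the placenta, the embryo and imprinted regions were nearly silent. The DLK1-DIO3 region of chromosome 14, an imprinted cluster, held 0.0291% and 0.0247% of the reads over 69 names, of which 5 reached 10 CPM in both libraries. Its leading name, miR-369-3p, was at 44.8 and 39.1 CPM. The primate cluster C19MC, known from placenta, gave 38 and 157 reads over 20 names. The MIR371 to MIR373 cluster gave 13 and 55 reads and the MIR302 to MIR367 cluster, both known from pluripotent cells, gave 3 and 9. No name of these last 3 clusters reached 10 CPM in both libraries.

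The labelled cell type was set against miRNAs known to mark cell types, in lists chosen with earlier results of these data known. All 12 epithelial and colon markers were listed, and 10 reached 10 CPM in both libraries, as 485 of all 1595 names did. The fibroblast and smooth muscle, endothelial, liver and neuronal lists were also listed in full. miR-200a-3p and miR-200b-3p, which hold the epithelial state by repressing ZEB1 and ZEB2, were at 1247 and 1215 CPM and at 1269 and 1360 CPM. miR-200c-3p and miR-141-3p, of the second cluster of that family, were lower, at 21.1 and 39.1 CPM and at 40.4 and 31.6 CPM. miR-203a-3p, an epidermal marker, was at 1349 and 1009 CPM, whereas miR-205-5p of the same list had 4 and 20 reads. The gut markers miR-192-5p and miR-194-5p were at 167 and 145 CPM and at 173 and 162 CPM, and miR-215-5p had 5 reads in each library.

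Markers of other cell types ranged from unlisted to over 1000 CPM. Of 8 blood markers, 5 reached 10 CPM in both libraries and their list summed to 914 and 635 CPM. The myeloid marker miR-223-3p had 6 and 9 reads and the lymphoid marker miR-155-5p was not listed in either library, while miR-142-3p was at 426 and 301 CPM and miR-451a at 175 and 229 CPM. Of 4 muscle markers none reached 10 CPM in both libraries, and their sum was 9.67 and 3.28 CPM. In the fibroblast and smooth muscle list 4 of 6 names reached 10 CPM in both libraries, and it summed to 790 and 682 CPM, of which miR-145-5p supplied 690 and 604 CPM.

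The endothelial miR-126-5p was at 1027 and 575 CPM, and miR-126-3p at 432 and 476 CPM. The liver marker miR-122-5p was at 100.2 and 60.7 CPM. Of the neuronal list, 3 of 5 names reached 10 CPM in both libraries. miR-124-3p had 1.67 reads and 1 read, whereas miR-128-3p was at 1633 and 1076 CPM and miR-9-5p at 604 and 780 CPM. miR-128-3p thus lay at levels like those of miR-200a-3p, and miR-126-5p did so in replicate 1 but was lower in replicate 2. miR-128-3p and miR-126-5p lay above miR-192-5p and miR-200c-3p in both libraries. None of the 10 pluripotent and placental names reached 10 CPM in both libraries, and their list summed to 11.4 and 7.73 CPM. The part of other cells, or of other RNA, in these levels was not tested.

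Other lists describe how miRNAs arise. miR-34a-5p, a direct p53 target, was at 4095 and 4295 CPM, while miR-34b-5p had 3 and 21 reads and miR-34c-5p was at 40.4 and 42.4 CPM. Over the 14 names of mirtrons, whose hairpins are spliced introns, 6 reached 10 CPM in both libraries and the sum was 445 and 300.3 CPM. Over the 6 names from capped or short hairpins that bypass the nuclear cut, the sum was 5313 and 6427 CPM, led by miR-320a at 3568 and 5336 CPM. The 5 names encoded within HOX gene clusters all reached 10 CPM in both libraries and summed to 18770 and 14834 CPM.

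By base composition, 58.1% and 68.9% of the reads with a sequence belonged to names that start with U, against 39.4% of the names. miR-21-5p starts with U, and without it the shares were 39.1% and 47.4%. Names starting with C were 21.3% of the names and 7.95% and 5.30% of the reads. Of reads of names with an arm, 65.1% and 73.1% came from 5p names, or 49.7% and 55.7% without miR-21-5p. Without miR-21-5p, U names were 39.3% of the names with a sequence and 5p names 625 of the 1250 with an arm. Replicate 1 then lay just below both shares, whereas replicate 2 stayed above them.

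Strand choice was measured in the 511 hairpin names that had both a 5p and a 3p row, out of 740 with either. These pairs held 84.3% and 86.1% of the reads. The 185 pairs with at least 50 reads in each library were tested with edgeR's quasi-likelihood test of 5p against 3p reads with the library as a block. A strand was called higher at a Benjamini-Hochberg adjusted p under 0.05. Each SE below is the absolute log2 ratio divided by the square root of the test's F statistic. The fit shares information on spread across hairpins, so an SE is not the spread of that hairpin alone between the libraries. Of the 185, 160 (86.5%) were called, 103 (55.7%) with 5p higher and 57 (30.8%) with 3p higher. The median pair had a 10.1-fold difference between its strands. In 62 hairpins 5p supplied over 90% of the reads in both libraries, and in 24 hairpins 3p did. Hairpins whose weaker strand carries a locus number, such as miR-24, miR-16 and miR-29b, had no matching pair. With locus numbers stripped and their reads summed, 111 hairpins had 5p and 63 had 3p called higher. Both strands of a hairpin share the library total, so no scaling was applied between strands. With median-ratio size factors over the strand columns, which shift every log2 ratio by -1.83, the split became 77 with 5p higher and 83 with 3p higher, and 5p fell from 64.4% to 48.1% of the calls.

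Most of the leading hairpins were strongly one-sided. The 5p strand of miR-21 supplied 97.5% and 98.5% of its reads, a log2 ratio of 5.69 (SE 0.43, edgeR adjusted p = 3.6e-10). miR-222 had 107807 and 295037 reads on 3p against 12045 and 30634 on 5p (log2 5p to 3p ratio -3.21, SE 0.39). The 3p strand supplied 90.8% and 76.8% of miR-221 (log2 ratio -2.51, SE 0.42). The edgeR adjusted p was 7.9e-08 for miR-222 and 9.4e-06 for miR-221. miR-31 gave 87.9% and 83.3% of its reads from 5p, with a log2 ratio of 2.59 (SE 0.38, edgeR adjusted p = 1.7e-06). That call was lost with median-ratio size factors (log2 ratio 0.76, edgeR adjusted p = 0.0896).

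The most 5p-sided hairpins at 100 CPM or more were miR-30b (99.7% and 99.4% 5p) and miR-100. miR-100-5p had 18113 and 51652 reads against 86 and 331 for its 3p strand, which gave a log2 ratio of 7.50 (SE 0.52, edgeR adjusted p = 1.9e-10). miR-10a gave 98.6% and 98.4% of its reads from 5p. The HOX-encoded miR-196a followed the same direction, with 98.5% and 99.7% from 5p, as did miR-10b and miR-196b. miR-615, also encoded within a HOX cluster, was called 3p higher, with 95.9% and 96.5% of its reads from 3p.

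The most 3p-sided at 100 CPM or more were miR-365b, miR-23a and miR-197. For miR-23a, 10389 and 30543 reads stood on 3p against 121 and 240 on 5p (log2 ratio -6.71, SE 0.52, edgeR adjusted p = 3.6e-10). miR-197 gave 98.5% and 98.6% of its reads from 3p, and miR-210, a hypoxia-induced miRNA, 98.3% and 98.1%. The extreme ratio of miR-365b (-7.14) is uncertain. miR-365a-3p and miR-365b-3p have the same sequence and were listed with 236 reads each in replicate 1 and with 1816 and 1812 in replicate 2, so the values of one product stand under both names.

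Even hairpins existed at moderate levels. In 16 hairpins 5p supplied between 33.3% and 66.7% of the reads in both libraries, and 25 hairpins were not called by edgeR. At 100 CPM or more the most even, miR-574, had 116 reads on 5p and 132 on 3p in replicate 1 and 454 and 457 in replicate 2 (log2 ratio -0.09, SE 0.40). miR-130b gave 53.8% and 41.1% from 5p, and miR-324 49.4% and 56.5%. miR-151a was the most abundant hairpin without a call, with 48.5% and 69.4% from 5p. A missed call does not show that strands were equal, and 10 of the 185 hairpins had their higher strand on opposite sides in the libraries.

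**Figure D4:**
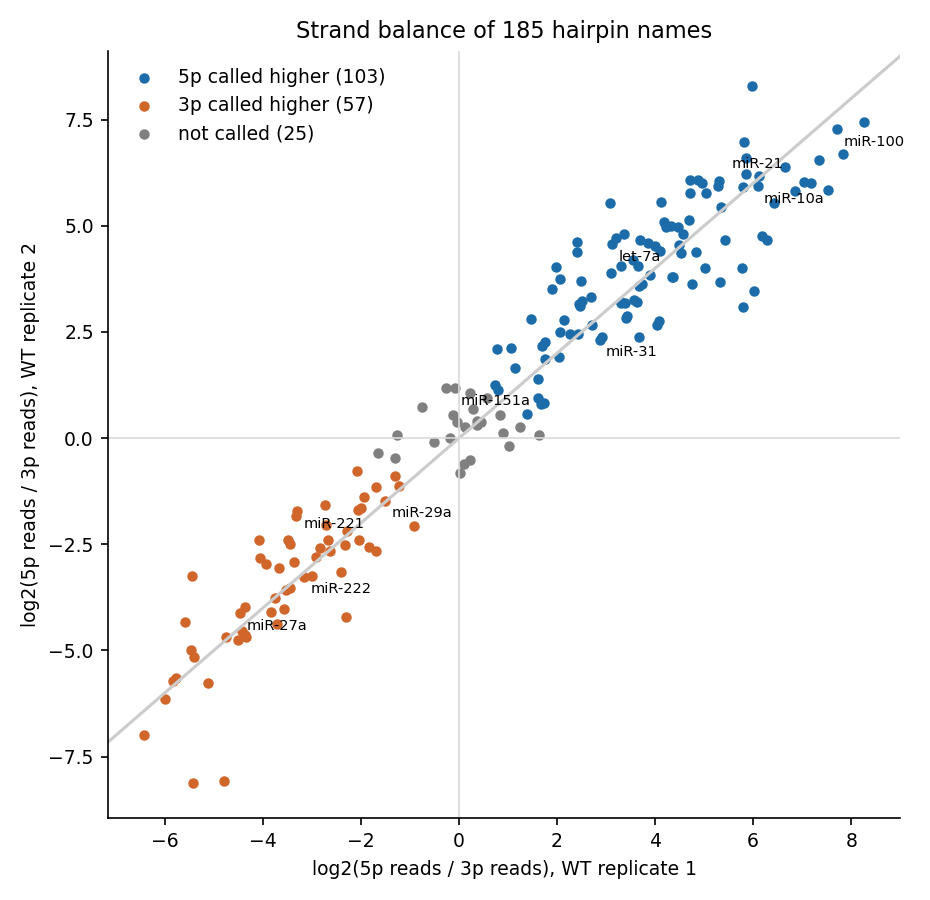
The log2 ratio of 5p to 3p reads, with 0.5 added to each, in WT replicate 1 (x axis) and WT replicate 2 (y axis) for the 185 tested hairpins, coloured by the edgeR call, with the 10 most abundant named and the diagonal marking equal ratios. The 103 hairpins with 5p called higher lie at the upper right, the 57 with 3p called higher at the lower left and the 25 not called near the origin.

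The strands were then compared by sequence in the 134 called hairpins that had both sequences. The strand that loads into Argonaute is known to be favoured by U at its first base and by a weakly paired 5′ end. The higher strand started with U in 77 hairpins (57.5%) and the lower strand in 21 (15.7%). C showed the reverse, with 16 (11.9%) of the higher and 54 (40.3%) of the lower strands. U was on the higher strand alone in 64 hairpins, on the lower strand alone in 8, on both in 13 and on neither in 49. Both directions showed this: U began 61.2% of the higher strands where 5p was higher and 51.0% where 3p was higher. The first 4 bases held more A or U in the higher strand in 71 hairpins, the same number in 30 and fewer in 33.

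Single hairpins varied in their first bases. miR-27a and miR-10a have U at the first base of the higher strand and A or C on the other, as printed above. miR-100 and miR-222 have A on the higher strand and C on the lower. miR-23b is among the 8 hairpins with U on the lower strand alone, with A on its higher strand. miR-574, not called and so outside the 134, has U on 5p and C on 3p with even reads. Called hairpins that share a seed on the same arm, 5p with 5p or 3p with 3p, were also compared. There were 57 such pairs among 49 called hairpins, and in all 57 both hairpins had the same higher strand. Of all 185 tested hairpins, 103 were called 5p higher and 57 3p higher. A hairpin can be in several pairs, and many pairs lie within a few large families. The called let-7 and miR-98 hairpins were all 5p higher, as were miR-15a, miR-15b, miR-424, miR-195 and miR-497, and miR-17, miR-20a, miR-93 and miR-106b. The share among all pairs of called hairpins was not worked out. Seeds shared across arms were left out. For example, miR-32 (AUUGCAC on 5p) was called 5p higher, whereas miR-25 and miR-92b (AUUGCAC on 3p) were called 3p higher. Members of a family can share reads, and the count of pairs was not tested.

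The libraries ranked names alike, with a Spearman rho of 0.955 over the 433 names with at least 100 reads in the sum of both, but differed by more than counting error. Across those names the log2 ratio of replicate 2 to replicate 1 had an SD of 0.73, against a median counting error of 0.12. A total of 66 names (15.2%) were over 2-fold apart, 25 higher in replicate 2 and 41 lower. Scaling by TMM, which raises every log2 ratio by 0.44, turned this into 57 higher and 19 lower, and median-ratio scaling, which raises it by 0.36, into 52 higher and 22 lower. These comparisons are of 1 library with 1 library and carry no test.

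Names far lower in replicate 2 included several rich in G and C. miR-1268b was at 8379 and 1904 CPM (log2 ratio -2.14), and its near-copy miR-1268a at 7598 and 1716 CPM. miR-6724-5p was at 1478 and 358 CPM. miR-3182 had 161 reads in replicate 1 and 32 in replicate 2, despite the greater depth. On the other side, miR-454-3p was at 90.5 and 379 CPM (log2 ratio 2.06). Of the 9 let-7 and miR-98 names, 8 were higher in replicate 2, with a median log2 ratio of 1.13. let-7c-5p was lower, with 211 and 305 reads. Over all 433 names 161 were higher, with a median of -0.23, and 80 of the 129 names with least G and C.

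The difference moved with base composition, which was looked at after the values had been seen. Over the 382 of these names with a sequence, the log2 ratio and the percentage of G and C had a Spearman rho of -0.57. The points share both libraries, so the value is a description. The median log2 ratio was 0.24 in the 129 names with least G and C (up to 40.9%), -0.21 in the 126 between and -0.63 in the 127 with most (from 52.6%). Among names numbered 1000 or below rho was -0.51 over 321 names. Weighted by reads, mean G and C content was 45.8% in replicate 1 and 42.7% in replicate 2. Depth and base composition changed with the library, so they cannot be told apart from any difference between the cells.

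**Figure D5:**
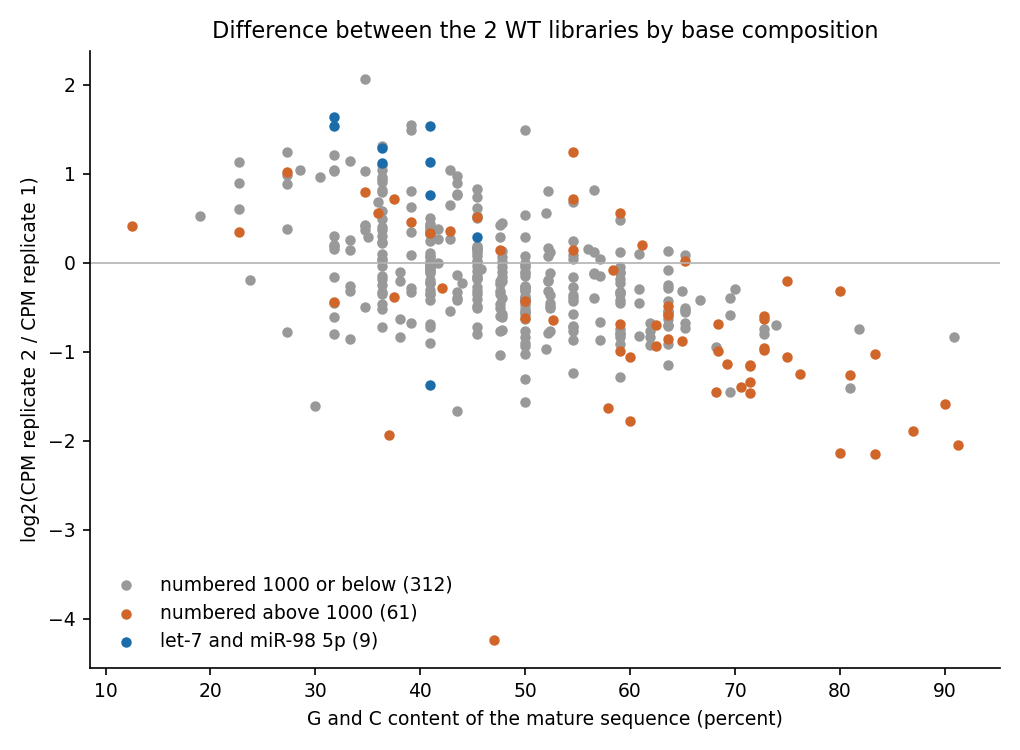
The log2 ratio of CPM in WT replicate 2 to WT replicate 1 (y axis) against the percentage of G and C in the mature sequence (x axis) for 382 names, with let-7 and miR-98 5p names in blue and names numbered above 1000 in orange. The points fall from left to right, and 8 of the 9 blue points lie above 0.

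Strand ratios also moved with base composition. Between the libraries the log2 strand ratio differed with an SD of 0.99 over the 185 hairpins, and 56 of them moved over 2-fold, 34 toward 5p in replicate 2 and 22 toward 3p. Where 5p had less G and C than 3p (80 hairpins), the ratio moved toward 5p in replicate 2 in 58, by a median log2 of 0.46. Where 5p had more (65 hairpins), it did so in 25, with a median of -0.18. let-7g rose from 84.2% to 96.1% 5p and let-7i from 84.2% to 95.4%. miR-454 went from 75.7% to 51.3% 5p. The part of base composition in these strand values was not tested.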

How the data were processed

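The authors deposited, for each library, unnormalised estimated counts of reads for every mature miRNA name. Per the labels' protocols, RNA was extracted with TRIzol and libraries were run on a NovaSeq. Tools listed in the submitters' processing notes, with no versions or roles, are cutadapt, BWA and bedtools, beside hg38 and mm10. Mapping settings and the miRNA annotation: not given in the sources used here. Fractions of a read occurred in 43 names, all of them made from several loci. No molecular identifiers are described, so intervals and limits cover counting error only.

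Counts were divided by library totals to give CPM. Hairpins were placed by name with GENCODE 29 (1593 of 1595 names matched), and sequences came from RefSeq (1415 of 1595). Clusters join hairpins of one strand at most 10 kb apart, and names of several loci were left out of cluster totals. For strand calls, rounded counts went into a robust quasi-likelihood fit of edgeR 4.0.16 (R 4.3.3) with library and strand in the model. The script was tested on simulated data. Replicate numbers pair both strands of a library by construction. DESeq2 1.42.0, limma 3.58.1 and other minimums were alternatives. Names in the text are the 25 most abundant, the 15 largest families and clusters and their members, the fixed clusters and marker lists, the 20 most abundant hairpins, the 10 most 5p-sided, 3p-sided and even hairpins at 100 CPM, and the 10 names most above and below between libraries at 50 CPM. The members and lists were chosen with earlier results of these data known.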

Additional observations from a re-analysis of the deposited data

How the results depend on the processing

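The strand model has the replicate block, and with no replicate block it gave 159 calls, 102 with 5p higher and 57 with 3p higher. DESeq2 gave 159 calls and limma 160. A minimum of 500 reads tested fewer hairpins and gave 95 calls (67 and 28), and no filter tested all 511 and gave 250 (147 and 103). Median-ratio size factors turned 10 named even hairpins into calls of 3p higher and ended the call of miR-31. No direction of a called hairpin was reversed among the named ones. Over all 185 hairpins the main run had 57 called 3p higher and 25 not called, and median-ratio size factors gave 83 called 3p higher. That is more than both groups of the main run together, so some 5p call outside the named ones was reversed. Leaving out either replicate leaves no residual spread, so the count of hairpins with more 5p reads is given, 118 and 120 in the single libraries against 114 in both.

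A threshold of 50 CPM left 312 names. A minimum of 500 reads left 41 of 266 names (15.4%) over 2-fold apart, against 66 of 433 (15.2%) at 100 reads. Without miR-21-5p the 10 most abundant names held 39.5% (58.5% with it), the 10 largest families 50.4% (65.4%), names starting with U 43.3% (63.5%) and 5p names 52.7% (69.1%). Splitting names of several loci equally raised the clustered share from 32.4% to 40.4%.

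The total of replicate 1 limits what can be said of names under 2.64 CPM, and 2 libraries give no measure of spread for a single name beyond their difference.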
